A study of Mus musculus with 6 samples.

Results

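The 10 genes described here are the gene of the Arf tumor suppressor, the gene of p53, the genes of the 2 closest inhibitors of p53 and 6 genes that p53 activates directly. They are Cdkn2a, Trp53, Mdm2, Mdm4, Cdkn1a, Ccng1, Sesn2, Phlda3, Eda2r and Trp53inp1. They were listed by symbol and are 10 of the 37991 genes in the count files. All 10 were found, and 9 of them passed the filter on low counts. Eda2r was the exception, with 1 count in 1 premalignant library and 0 counts in the other 5 libraries. A count of 0 allows a level of up to 0.0526 to 0.108 CPM (counts scaled to library size) in these libraries.

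Eμ-Myc mice carry a Myc transgene that is active in B-lineage cells, and they pass through a premalignant phase before lymphoma arises. All mice were C57BL/6, and all cells were pre-B cells sorted from bone marrow. By the study's methods the sort took cells with high B220, low IgM and low IgD from wild type and premalignant mice, and transformed cells with B220 but without IgM and IgD from malignant mice, so that the gate differed between the stages as well. Wild type mice and premalignant Eμ-Myc heterozygotes were 4 to 6 weeks old and, by the study's methods, female littermates, while malignant Eμ-Myc heterozygotes were killed at 10 to 20 weeks, once lymphoma had formed, and were of both sexes. PolyA RNA was sequenced from 2 libraries of each stage, and each malignant library comes from spontaneous disease, so that the stages differ in age and sex as well as in the transgene or the disease.

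Arf is one of 2 proteins of the Cdkn2a locus. It is read from its own first exon in another frame than the cell cycle inhibitor p16Ink4a, and it binds Mdm2, the ubiquitin ligase that marks p53 for degradation. High Myc is a known trigger of this pathway, and loss of Arf or of p53 is a known event in Eμ-Myc lymphoma. When p53 is free of Mdm2 and of its relative Mdm4, it turns on genes that halt the cell cycle, limit growth or kill the cell, and it turns on Mdm2 itself.

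Sites of p53 binding near the start of each gene were looked for in the mm9 genome (NCBIM37), to show which members carry such a sequence close to their start. The p53 response element was taken as 2 adjacent copies of a 10-base unit, 20 bases in all, with the core C and core G of each copy intact and at most 2 mismatches elsewhere. Within 3000 bases either side of the start, 3 of the 10 members held such a site, as did 5.94% of 22380 protein-coding genes and 11 of the 37 other p53 target genes listed for comparison. The element is its own reverse complement, so both strands were covered. The sites of Cdkn1a, Ccng1 and Eda2r are shown 5′ to 3′ on the strand of the gene, with the cores of the copies in capitals.
Cdkn1a, chr17:29227873-29227892, 42 bases before the start: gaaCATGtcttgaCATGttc
Ccng1, chr11:40568964-40568983, 160 bases before the start: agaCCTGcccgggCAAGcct
Ccng1, chr11:40568438-40568457, 366 bases after the start, in an intron: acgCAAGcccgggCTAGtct
Eda2r, chrX:94571873-94571892, 672 bases after the start, in an intron: gggCAAGtccgggCCTGtgt
The Cdkn1a site and both Ccng1 sites have 1 mismatch, and the Eda2r site has 2. Distances are from the outermost annotated start of each gene, and Cdkn1a also has a RefSeq start farther downstream. Just outside the limit, with 3 mismatches, stood sites of Mdm2, Mdm4, Trp53 and Cdkn2a, and 25.3% of all protein-coding genes held a site at that limit. That of Mdm2 overlaps an annotated exon 644 bases after the start, and is shown since Mdm2 is both a target and the main inhibitor of p53.
Mdm2, chr10:117147161-117147180: ggtCAAGttgggaCACGtcc
Of the 3 members with a site within the limit, Cdkn1a was lower in malignant cells than in wild type, Ccng1 was called in no comparison and Eda2r was at or near 0. A match of letters is not a bound site, and binding was not measured here.

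In the RefSeq promoter windows (GRCm38.p6, 250 bases before to 50 bases after a start), 12 windows matched 9 members. Cdkn1a had an upstream window, chr17:29090729-29091028, and a downstream window, chr17:29093519-29093818. The closest p53 match had 1 mismatch in the upstream window and 7 in the downstream window. CACGTG, the sequence that Myc and its partner Max bind best, stood in 2 of the 12 windows, those of Trp53 and Eda2r, and in 7.15% of 32851 windows of all genes. The motif reads the same on both strands and overlaps none of the p53 sites printed above. The Trp53 stretch is shown with the motif in capitals, and Eda2r was at or near 0 counts. Binding of Myc was not measured, and a link of the motif to the level of either gene was not tested.
Trp53, chr11:69580359-69580384 in GRCm38.p6: tttcccctccCACGTGctcaccctgg

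The 6 libraries held between 30031100 and 53453055 counts on genes, with the replicate 1 library of each stage the deeper one. Myc, the gene of the transgene, was at 33.8 and 41.4 CPM in wild type, 1164 and 1155 CPM in premalignant and 1732 and 1578 CPM in malignant cells. CPM is the count scaled to the TMM-normalized library size, and a gene was called changed when edgeR's quasi-likelihood test over 16683 genes gave an adjusted p up to 0.1 and the log2 fold change was 0.5 or more in either direction. The study took single animals as its biological replicates, and with 2 against 2 libraries an exact two-sided permutation test cannot go below a p of 0.333. Calls therefore depend on the variance that edgeR pools over genes.

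All 11 markers of B-cell precursors had counts in every library, and their summed level was 7348 and 8084 CPM in wild type, 3489 and 3453 CPM in premalignant and 3197 and 2820 CPM in malignant cells. The markers differed in both directions between the malignant libraries. The surrogate light chain genes Vpreb1 and Igll1 were at 0.146 and 0.167 CPM in malignant replicate 1, against 4.05 and 7.56 CPM in malignant replicate 2. Both malignant libraries were far below wild type, at 115 and 131 CPM for Vpreb1 and 197 and 195 CPM for Igll1. Il7r was also lower in malignant replicate 1 than in replicate 2 (29.5 and 41.7 CPM). Rag1 (154 and 56.7 CPM), Rag2 (25.6 and 8.64 CPM) and Ptprc (504 and 302 CPM) were higher in replicate 1. Of the markers of other cells, the summed level of 9 myeloid genes ran from 792 to 1738 CPM in wild type, 236 to 255 CPM in premalignant and 56.8 to 116 CPM in malignant cells. That of 6 erythroid genes ran from 294 to 1084 CPM, 60.3 to 138 CPM and 52.5 to 58.1 CPM in the same order. That of 8 T and NK cell genes ran from 61.2 to 128 CPM, 15.0 to 34.1 CPM and 1.65 to 10.9 CPM, with Cd3e at 0 in premalignant replicate 2 and Trac at 0 in malignant replicate 2. That of 5 mature B and plasma cell genes ran from 173 to 252 CPM, 211 to 260 CPM and 32.9 to 92.2 CPM, and that of 4 megakaryocyte genes ran from 1.38 to 4.67 CPM, 0.953 to 1.39 CPM and 0.690 to 0.717 CPM, with Pf4 at 0 in both malignant libraries and Gp9 at 0 in malignant replicate 1. The part of these cells in the results below was not tested.

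Cdkn2a rose strongly from wild type to premalignant cells, and the malignant libraries lay on either side of the premalignant ones. It stood at 0.193 and 0.0566 CPM in wild type (11 and 2 counts), 4.13 and 5.60 CPM in the premalignant libraries (217 and 186 counts), 0.293 CPM in malignant replicate 1 (14 counts) and 8.82 CPM in malignant replicate 2 (246 counts). Both premalignant libraries were above both wild type libraries, malignant replicate 1 lay just above the wild type libraries, and malignant replicate 2 lay above both premalignant libraries. The log2 fold change was 5.17 ± 1.56 (SE) for premalignant vs. wild type (edgeR, adjusted p = 0.0492) and 5.06 ± 1.56 for malignant vs. wild type (edgeR, adjusted p = 0.0403). In malignant vs. premalignant it was -0.11 ± 1.24 (edgeR, adjusted p = 0.980). In these bulk samples, fewer cells that express a gene and less RNA per cell cannot be told apart.

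The call of Cdkn2a depended on single libraries. For premalignant vs. wild type it was lost without wild type replicate 1 (log2 fold change 6.35, edgeR, adjusted p = 0.165), wild type replicate 2 (4.64, adjusted p = 0.242), premalignant replicate 1 (5.39, adjusted p = 0.132) or premalignant replicate 2 (4.95, adjusted p = 0.155). For malignant vs. wild type it was lost without wild type replicate 1 (6.25, edgeR, adjusted p = 0.143), wild type replicate 2 (4.53, adjusted p = 0.202) or malignant replicate 2 (1.13, adjusted p = 0.206).

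The annotation (GENCODE vM1) gives Cdkn2a, at chr4:88920377-88940557 on the minus strand of mm9, a first exon at 88940238 to 88940557 for Arf and one at 88927890 to 88928096 for p16Ink4a. The files give 1 count per gene, so the transcripts of Arf and p16Ink4a could not be told apart, and the values above are their sum. Its closest protein-coding neighbours on either side were Mtap, which salvages methylthioadenosine, and Cdkn2b, which encodes the cell cycle inhibitor p15Ink4b. Mtap was at 23.2 and 18.9 CPM in wild type, 68.3 and 72.3 CPM in premalignant and 119 and 80.1 CPM in malignant cells, and rose in both stages compared with wild type (log2 fold change 1.74 ± 0.23 and 2.24 ± 0.23, edgeR, adjusted p = 0.00433 and 0.00122). Cdkn2b was at 0.0351 and 0.227 CPM in wild type, 0.476 and 0.211 CPM in premalignant, 0 in malignant replicate 1 and 0.609 CPM in malignant replicate 2, and was not called in any comparison. Malignant replicate 1, with the least Cdkn2a of the 4 Eμ-Myc libraries, had 0 counts of Cdkn2b and the highest level of Mtap of the 6. Cdkn2b was near the floor throughout, with 2 counts in wild type replicate 1 and at most 25 in any library. A link among these genes was not tested. Of the 4 neighbours farther out, Ifne and 4930553M12Rik had no count in any library, and Dmrta1 and Zfp352 did not pass the filter.

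Trp53 rose in both Eμ-Myc stages. It was at 155 and 153 CPM in wild type, 297 and 273 CPM in premalignant and 242 and 272 CPM in malignant cells. The 4 Eμ-Myc libraries were all above the wild type libraries, and malignant and premalignant levels lay close together, with 272 CPM in malignant replicate 2 against 273 CPM in premalignant replicate 2. The increase was 1.85-fold in premalignant cells (log2 fold change 0.89 ± 0.13, edgeR, adjusted p = 0.00620) and 1.67-fold in malignant cells (0.74 ± 0.13, edgeR, adjusted p = 0.00667). Malignant and premalignant cells were not called different (-0.15 ± 0.13, edgeR, adjusted p = 0.605). Wrap53, which starts 104 bp away on the other strand and helps to localize telomerase, stayed between 21.3 and 26.6 CPM and was not called in any comparison.

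Mdm2, a p53 target that ends the p53 response, fell in both Eμ-Myc stages. It was at 134 and 127 CPM in wild type, 85.6 and 79.7 CPM in premalignant and 71.1 and 77.1 CPM in malignant cells. All 4 Eμ-Myc libraries were below both wild type libraries. The level was 1.58-fold lower in premalignant cells (log2 fold change -0.66 ± 0.13, edgeR, adjusted p = 0.0132) and 1.76-fold lower in malignant cells (-0.82 ± 0.13, edgeR, adjusted p = 0.00430). The first of these calls was lost without premalignant replicate 1 (-0.70, edgeR, adjusted p = 0.111) or premalignant replicate 2 (-0.60, adjusted p = 0.159).

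Mdm4, which masks the activation domain of p53, was not called in any comparison. It was at 145 and 201 CPM in wild type, 171 and 160 CPM in premalignant, 287 CPM in malignant replicate 1 and 135 CPM in malignant replicate 2. The malignant libraries held both the highest and the lowest level of the 6. The log2 fold change was -0.06 ± 0.35 for premalignant vs. wild type (edgeR, adjusted p = 0.913), 0.29 ± 0.35 for malignant vs. wild type (adjusted p = 0.557) and 0.35 ± 0.35 for malignant vs. premalignant (adjusted p = 0.660).

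Per kilobase of exon, which allows genes to be compared with each other, Trp53 stood at a mean of 38.1, 70.4 and 63.6 RPKM in wild type, premalignant and malignant cells. Mdm2 stood at 25.7, 16.3 and 14.6 RPKM, and Mdm4 at 49.3, 47.2 and 60.0 RPKM. By these means Trp53 was below Mdm4 in wild type and above it in premalignant cells. In wild type and in malignant cells their gap was smaller than the spread of Mdm4 between its libraries. Cdkn2a reached 0.107, 4.16 and 3.89 RPKM.

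**Figure D1:**
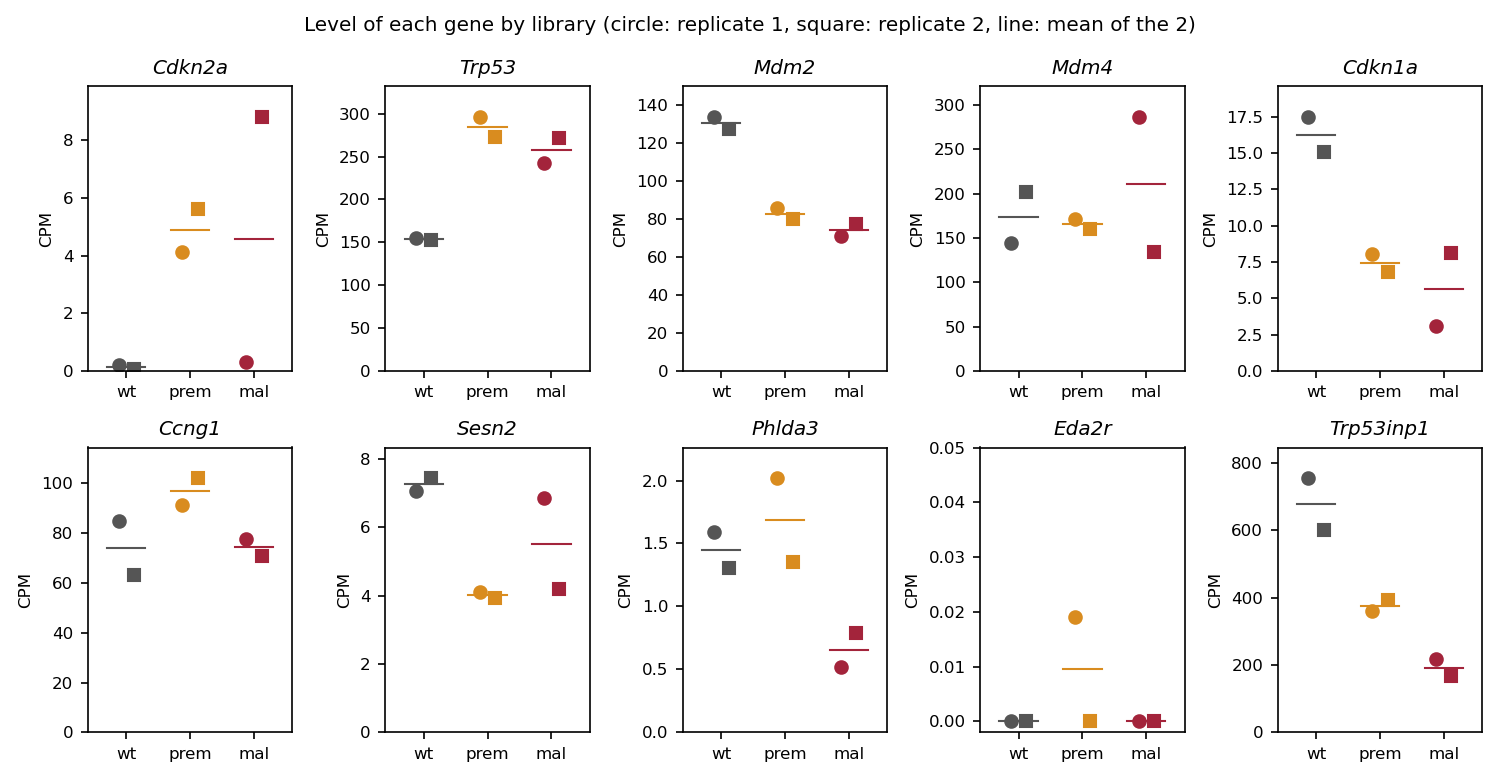
Level of the 10 genes in CPM (vertical axes, 1 scale per gene, all from 0 except that of Eda2r, which starts just under 0) in pre-B cells of the 3 stages (wt, wild type; prem, premalignant; mal, malignant). Circles are replicate 1, squares replicate 2 and lines the mean of both; the malignant circle and square lie far apart for Cdkn2a (0.293 and 8.82 CPM), Mdm4 (287 and 135 CPM) and Cdkn1a (3.10 and 8.14 CPM).

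Cdkn1a encodes p21, the inhibitor of cyclin-dependent kinases through which p53 halts the cell cycle, and it fell from wild type to malignant cells. It was at 17.5 and 15.0 CPM in wild type, 8.02 and 6.81 CPM in premalignant, 3.10 CPM in malignant replicate 1 and 8.14 CPM in malignant replicate 2. All 4 Eμ-Myc libraries were below both wild type libraries. The level was 2.91-fold lower in malignant cells (log2 fold change -1.54 ± 0.46, edgeR, adjusted p = 0.0371), a call that was lost without wild type replicate 1 (-1.42, adjusted p = 0.151) or wild type replicate 2 (-1.64, adjusted p = 0.117). For premalignant vs. wild type the log2 fold change was -1.13 ± 0.46 and just missed the threshold (edgeR, adjusted p = 0.106). It passed under 7 of the alternatives, among them the fits without malignant replicate 1 (-1.12, edgeR, adjusted p = 0.00337) and without malignant replicate 2 (-1.07, adjusted p = 0.00442).

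Trp53inp1, a p53-induced gene that acts in cell death and autophagy, fell at each stage and was the only member called in malignant vs. premalignant cells. It was at 755 and 601 CPM in wild type, 360 and 391 CPM in premalignant and 217 and 168 CPM in malignant cells. The 3 stages did not overlap. The level was 1.80-fold lower in premalignant cells compared with wild type (log2 fold change -0.85 ± 0.19, edgeR, adjusted p = 0.0202), 3.53-fold lower in malignant cells compared with wild type (-1.82 ± 0.19, adjusted p = 0.00135) and 1.96-fold lower in malignant than in premalignant cells (-0.97 ± 0.19, adjusted p = 0.0612). The call for premalignant vs. wild type was lost without premalignant replicate 1 (-0.79, edgeR, adjusted p = 0.164) or premalignant replicate 2 (-0.91, adjusted p = 0.137). That for malignant vs. premalignant was lost without wild type replicate 1 or 2 (adjusted p = 0.122 and 0.123 in edgeR) and without premalignant replicate 1 or 2 (adjusted p = 0.418 and 0.399).

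Sesn2 encodes sestrin 2, which restrains mTORC1, and it fell from wild type to premalignant cells. It was at 7.08 and 7.45 CPM in wild type, 4.12 and 3.95 CPM in premalignant, 6.86 CPM in malignant replicate 1 and 4.19 CPM in malignant replicate 2. Malignant replicate 1 lay near the wild type libraries and malignant replicate 2 near the premalignant ones. The log2 fold change was -0.85 ± 0.33 for premalignant vs. wild type (edgeR, adjusted p = 0.0988), and the call was lost without wild type replicate 1, wild type replicate 2, premalignant replicate 1 or premalignant replicate 2 (adjusted p = 0.229, 0.292, 0.315 and 0.362 in edgeR). For malignant vs. wild type it was -0.39 ± 0.33 (edgeR, adjusted p = 0.382), or -0.78 without malignant replicate 1, which was called (adjusted p = 0.0517). Sesn2 overlaps Gm12981 on the same strand, with 0 shared exon bases.

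Phlda3, whose product competes with Akt for membrane lipids, was low in all libraries and fell from wild type to malignant cells. It was at 1.59 and 1.30 CPM in wild type, 2.02 and 1.36 CPM in premalignant and 0.523 and 0.789 CPM in malignant cells. Both malignant libraries were below the other 4. The level was 2.23-fold lower in malignant cells compared with wild type (log2 fold change -1.16 ± 0.43, edgeR, adjusted p = 0.0720). The call was lost without wild type replicate 1, wild type replicate 2, premalignant replicate 1, premalignant replicate 2 or malignant replicate 1 (adjusted p = 0.238, 0.151, 0.127, 0.126 and 0.177 in edgeR). Malignant vs. premalignant gave -1.38 ± 0.43 and was not called (edgeR, adjusted p = 0.159).

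Ccng1, which encodes cyclin G1, was not called in any comparison. It was at 84.8 and 63.1 CPM in wild type, 91.4 and 102 CPM in premalignant and 77.6 and 71.0 CPM in malignant cells. The premalignant libraries were above the other 4, and wild type and malignant levels overlapped. The log2 fold change was 0.39 ± 0.18 for premalignant vs. wild type (edgeR, adjusted p = 0.147), and without wild type replicate 1 it was 0.62 and called (adjusted p = 0.0693). Eda2r, a receptor of the tumor necrosis factor family, was not detectable at this depth beyond its single count. Per kilobase of exon, the tested targets ranked from Trp53inp1, at a mean of 105, 58.1 and 29.7 RPKM in wild type, premalignant and malignant cells, through Ccng1, at 21.1, 27.6 and 21.1 RPKM, down to Phlda3, at 0.929, 1.08 and 0.421 RPKM.

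**Figure D2:**
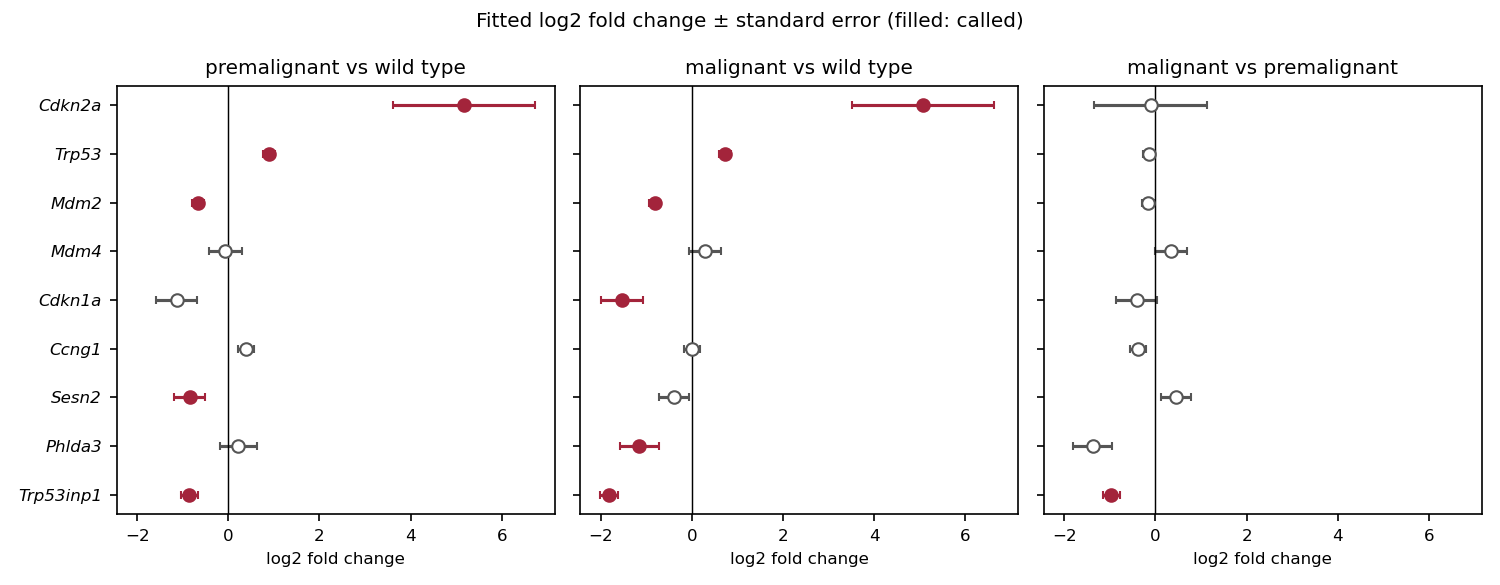
Fitted log2 fold change of the 9 tested genes (horizontal axes) with its standard error (bars) in the 3 comparisons, from edgeR. Filled red points were called; Trp53 is to the right and Mdm2 and Trp53inp1 are to the left of 0 in both comparisons with wild type, and only Trp53inp1 was called for malignant vs. premalignant (-0.97).

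Of the 9 tested members, 5 were called for premalignant vs. wild type, where 39.3% of all genes tested were called (19% higher and 20.3% lower), with Cdkn2a and Trp53 higher and Mdm2, Sesn2 and Trp53inp1 lower. For malignant vs. wild type, 6 were called, where 49.2% of all genes were (24.9% higher and 24.3% lower), with Cdkn2a and Trp53 higher and Mdm2, Cdkn1a, Phlda3 and Trp53inp1 lower. For malignant vs. premalignant, 1 was called, where 6.18% of all genes were (3.73% higher and 2.45% lower). The median log2 fold change of the 9 was -0.06, -0.39 and -0.16 in these comparisons, and that of all genes was -0.08, -0.02 and 0.04. Premalignant and malignant cells were compared with the same wild type libraries. For the counts that follow, with a wild type or premalignant library left out, the share of all genes called was not recorded. Without premalignant replicate 1 or premalignant replicate 2, the first count was 1, and without wild type replicate 2 it was 3. Without wild type replicate 1 or wild type replicate 2, the second count was 3.

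The malignant libraries differed from each other at Cdkn2a, Cdkn1a and Mdm4. Cdkn2a in malignant replicate 1 was 0.0332 of its level in malignant replicate 2 (95% exact counting interval 0.0179 to 0.0568). Cdkn1a in replicate 1 was 0.380 of its level in replicate 2 (0.307 to 0.470), while Mdm4 was 2.13 times its level (2.06 to 2.21). These intervals cover counting error only, and 1 library a side gives no test. On the log2(CPM + 0.5) scale, which understates the difference of low genes, these differences were -3.55, -1.26 and 1.09.

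A difference past 1 on this scale was found for 3 of 9 members between the malignant libraries, where 9.73% of all genes had one. It was found for 0 of 9 between the premalignant libraries, where 1.22% of all genes had one, and for 0 of 9 between the wild type libraries, where 3.04% had one. Sesn2 stood at a ratio of 1.64 (1.32 to 2.04) and Trp53inp1 at 1.29 (1.25 to 1.34). Trp53 at 0.891, Mdm2 at 0.922 and Ccng1 at 1.09 were nearly level in the malignant libraries, and the interval of Phlda3, 0.359 to 1.23, included equal levels.

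**Figure D3:**
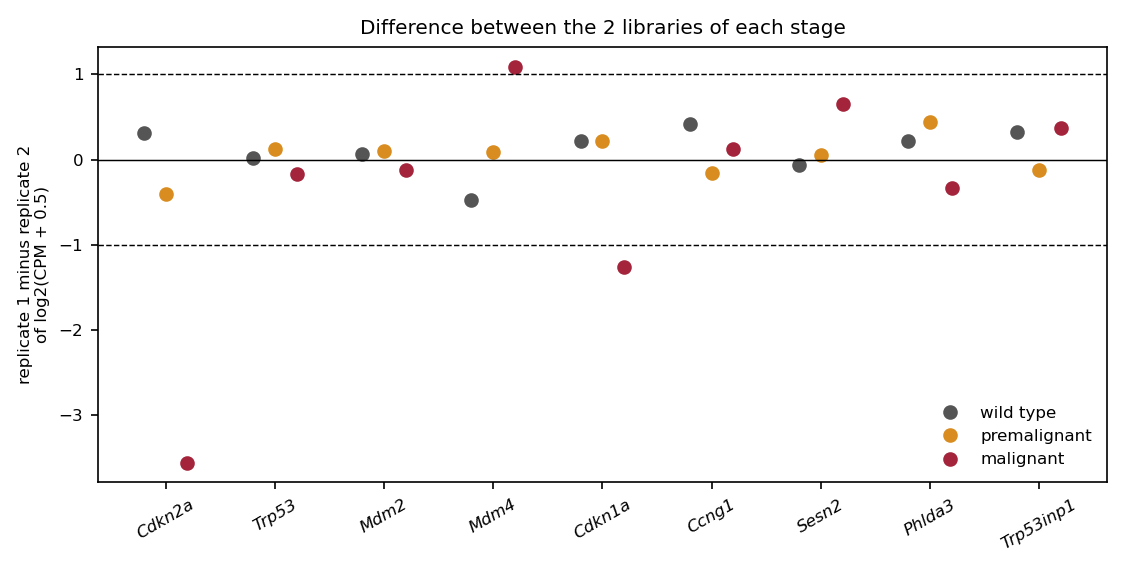
Replicate 1 minus replicate 2 of log2(CPM + 0.5) (vertical axis) for the 9 tested genes in wild type, premalignant and malignant cells, with dashed lines at 1 and -1. The red malignant points of Cdkn2a (-3.55), Cdkn1a (-1.26) and Mdm4 (1.09) are the only ones outside the dashed lines.

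Each malignant library was also fitted without the other, with the lone library taken to vary like those of the other stages. Against premalignant cells, malignant replicate 1 alone had 6 of 9 members called, where 21.1% of all genes were. Cdkn2a was lower (log2 fold change -4.07 ± 0.66, edgeR, adjusted p = 0.00943), as were Cdkn1a (-1.30 ± 0.25, adjusted p = 0.0169), Phlda3 (-1.73 ± 0.49, adjusted p = 0.0618) and Trp53inp1 (-0.83 ± 0.18, adjusted p = 0.0267). Mdm4 (0.76 ± 0.20, adjusted p = 0.0508) and Sesn2 (0.73 ± 0.24, adjusted p = 0.0890) were higher. Malignant replicate 2 alone had 1 of 9 called, Trp53inp1 (-1.16 ± 0.18, edgeR, adjusted p = 0.0136), where 15.6% of all genes were. Its Cdkn2a stood at 0.86 ± 0.45 (edgeR, adjusted p = 0.295), its Cdkn1a at 0.13 ± 0.22 (adjusted p = 0.773) and its Mdm4 at -0.30 ± 0.21 (adjusted p = 0.441), none of them called.

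Against wild type, Trp53 was higher and Mdm2, Cdkn1a and Trp53inp1 were lower in either malignant library on its own, and each library had 6 of 9 members called, where 50.9% of all genes were called for malignant replicate 1 and 52.2% for malignant replicate 2. Cdkn1a was at -2.37 ± 0.26 in malignant replicate 1 (edgeR, adjusted p = 0.000569) and -0.99 ± 0.23 in malignant replicate 2 (adjusted p = 0.0134). Cdkn2a was called in malignant replicate 2 (6.01 ± 0.54, edgeR, adjusted p = 0.000354) and not in malignant replicate 1 (1.13 ± 0.66, adjusted p = 0.206), Mdm4 in malignant replicate 1 (0.76 ± 0.20, adjusted p = 0.0210) and not in malignant replicate 2 (-0.35 ± 0.21, adjusted p = 0.217). These fits put 1 library against 2, and the difference between them was not tested.

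**Figure D4:**
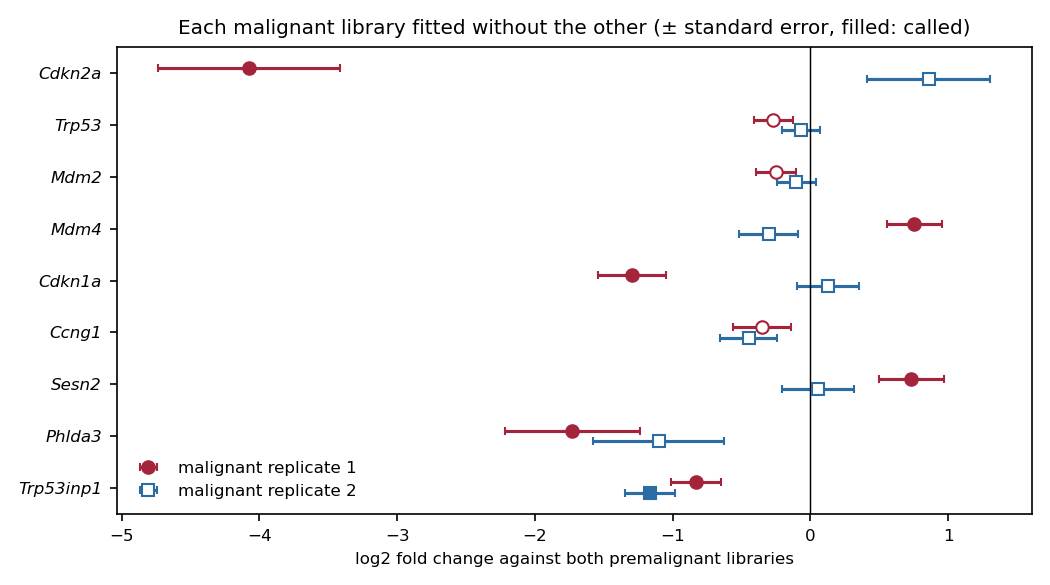
Log2 fold change against the premalignant libraries (horizontal axis, bars are standard errors) for malignant replicate 1 alone (red circles) and malignant replicate 2 alone (blue squares), filled where called. Cdkn2a stands at -4.07 and 0.86, Cdkn1a at -1.30 and 0.13 and Mdm4 at 0.76 and -0.30, while Trp53inp1 was called lower in both.

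Genes that act above Arf and p53 were taken from a list of 28 regulators, of which 26 were tested. For premalignant vs. wild type, 10 rose and 4 fell, so that 14 of 26 were called, where 39.3% of all genes were. For malignant vs. wild type, 9 rose and 4 fell, 13 of 26 in all, where 49.2% of all genes were called. For malignant vs. premalignant edgeR called 0, where 6.18% of all genes were called. In that comparison 3 of the 26 had an unadjusted p under 0.05, and DESeq2 also called 0. Their median log2 fold change was 0.16, 0.34 and 0.01. The share of all genes called without a premalignant library was not recorded. Without premalignant replicate 1 or premalignant replicate 2, 8 were called in the first comparison.

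Npm1, the nucleolar protein that holds Arf, rose from 517 and 457 CPM in wild type to 2573 and 2700 CPM in premalignant and 3017 and 2672 CPM in malignant cells (log2 fold change 2.44 ± 0.17 and 2.55 ± 0.17 compared with wild type, edgeR, adjusted p = 0.00147 and 0.000611). The ribosomal proteins Rpl5 and Rpl11, which inhibit Mdm2 when free of the ribosome, also rose in both stages (Rpl11, 1.22 ± 0.21 and 1.45 ± 0.21, edgeR, adjusted p = 0.00900 and 0.00322). Ppp1r13l, an inhibitor of p53, rose by 1.20 ± 0.40 and 1.80 ± 0.40 (edgeR, adjusted p = 0.0644 and 0.0140). Dmtf1, an activator of the Arf promoter, fell (-0.84 ± 0.16 and -1.01 ± 0.16, edgeR, adjusted p = 0.0127 and 0.00449), as did the Polycomb gene Cbx7, a repressor of the locus (-1.49 ± 0.21 and -1.11 ± 0.21, adjusted p = 0.00535 and 0.00796). Foxo3 fell in both (-0.87 ± 0.17 and -0.91 ± 0.17, edgeR, adjusted p = 0.0127 and 0.00711), and so did the ubiquitin ligase gene Rchy1 (-0.84 ± 0.17 and -0.92 ± 0.17, adjusted p = 0.0160 and 0.00802).

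Between the malignant libraries, 2 of the 26 regulators differed by more than 1 on the log2(CPM + 0.5) scale (7.69%, against 9.73% of all genes), Bmi1 and Tbx2. Tbx2, a repressor of Arf, was low, at 0.690 CPM in malignant replicate 1 and 0.0717 CPM in malignant replicate 2 (33 and 2 counts). It was at 0.473 and 0.736 CPM in wild type (27 and 26 counts) and 0.152 and 0.0603 CPM in premalignant cells (8 and 2 counts). Malignant replicate 1 thus lay between the wild type libraries, with a log2 fold change of 0.23 ± 0.63 against wild type. Bmi1, a Polycomb repressor of the Cdkn2a locus, was at 153 CPM in malignant replicate 1 and between 39.0 and 52.6 CPM in the other 5 libraries. Ezh2, a Polycomb methyltransferase, was at 224 CPM in malignant replicate 1 and between 376 and 505 CPM in the other 5. The log2(CPM + 0.5) difference between malignant replicate 1 and replicate 2 was 1.74 for Bmi1, 1.06 for Tbx2 and -0.90 for Ezh2, which did not pass 1. In malignant replicate 1 alone vs. premalignant cells, Bmi1 was higher (1.58 ± 0.20, edgeR, adjusted p = 0.00323), as was Tbx2 (2.55 ± 0.68, adjusted p = 0.0510), and Ezh2 was lower (-0.99 ± 0.21, adjusted p = 0.0225). Of the 4 Eμ-Myc libraries, malignant replicate 1 had the lowest Cdkn2a and Ezh2 levels and the highest Bmi1 level. That is 1 library, and a link among these levels was not tested.

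Of 37 other p53 targets, 35 were tested, and these moved in both directions. For premalignant vs. wild type, 11 rose and 7 fell, 18 of 35 in all, where 39.3% of all genes were called. For malignant vs. wild type, 12 rose and 10 fell, 22 of 35 in all, where 49.2% of all genes were called, and for malignant vs. premalignant 2 rose and 1 fell, where 6.18% of all genes were called. Their median log2 fold change was -0.06, 0.11 and 0.03. By role, 6 of 12 genes of cell death rose and 1 fell in premalignant cells, and 7 rose and 3 fell in malignant cells, compared with wild type. Of 7 genes of the cell cycle, 0 rose in either stage, and 2 fell in premalignant and 4 in malignant cells. Of 5 genes of DNA repair, 1 rose and 2 fell in premalignant cells, and 0 rose and 1 fell in malignant cells. Of 11 tested genes of metabolism and other roles, 4 rose and 2 fell in premalignant cells, and 5 rose and 2 fell in malignant cells. Of all genes tested, 19% rose and 20.3% fell in premalignant cells, and 24.9% rose and 24.3% fell in malignant cells. Counts this small were not compared between roles. For the fits that follow without a wild type or premalignant library, the share of all genes called was not recorded. Without premalignant replicate 1 or premalignant replicate 2, 8 of the 35 were called in the first comparison. Malignant vs. premalignant had 0 called when any wild type or premalignant library was left out, 8 without malignant replicate 1, where 15.6% of all genes were called, and 12 without malignant replicate 2, where 21.1% were.

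Bbc3, which encodes the cell death inducer Puma, rose from 3.38 and 5.12 CPM in wild type to 13.3 and 12.9 CPM in premalignant and 14.8 and 10.9 CPM in malignant cells (log2 fold change 1.62 ± 0.31 and 1.60 ± 0.31 compared with wild type, edgeR, adjusted p = 0.0128 and 0.00881). Steap3, an endosomal ferrireductase, rose from 17.3 and 14.8 CPM to 43.8 and 45.9 CPM and on to 71.1 and 83.3 CPM, and was called in all 3 comparisons (1.48 ± 0.16, 2.27 ± 0.17 and, for malignant vs. premalignant, 0.78 ± 0.16, edgeR, adjusted p = 0.00280, 0.000639 and 0.0658). Pmaip1, which encodes Noxa, was at 4.22 and 9.17 CPM in wild type, 4.90 and 6.81 CPM in premalignant and 17.0 and 38.2 CPM in malignant cells, so that both malignant libraries were above the other 4. It was higher in malignant cells than in premalignant cells (2.24 ± 0.53, edgeR, adjusted p = 0.0937) and than in wild type (2.05 ± 0.53, adjusted p = 0.0227). Rps27l was at 51.2 and 34.8 CPM in wild type, 115 and 120 CPM in premalignant and 125 and 128 CPM in malignant cells. It rose in premalignant cells by 1.45 ± 0.20 (edgeR, adjusted p = 0.00510). Zmat3, an RNA-binding protein, was at 5.15 and 4.30 CPM in wild type and 11.4 and 13.7 CPM in premalignant cells. It was at 32.5 CPM in malignant replicate 1 and 15.2 CPM in malignant replicate 2, and rose in malignant cells compared with wild type by 2.33 ± 0.40 (edgeR, adjusted p = 0.00561).

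On the falling side, Gadd45a, a stress-response gene, went from 23.3 and 39.9 CPM in wild type to 8.80 and 12.5 CPM in premalignant and 5.42 and 6.42 CPM in malignant cells (log2 fold change -1.57 ± 0.33 and -2.42 ± 0.34 compared with wild type, edgeR, adjusted p = 0.0168 and 0.00313). The death receptor gene Fas fell by 1.65 ± 0.47 and 2.04 ± 0.48 on the log2 scale (edgeR, adjusted p = 0.0424 and 0.0170). Ephx1, an epoxide hydrolase, was lowest in premalignant cells, at 1.28 and 1.39 CPM, against 8.17 and 13.5 CPM in wild type (-3.02 ± 0.41, edgeR, adjusted p = 0.00474). Plk2, a kinase of the polo family, was at 16.9 and 62.6 CPM in wild type, 1.30 CPM in malignant replicate 1 and 8.03 CPM in malignant replicate 2, so that the libraries of both stages lay far apart. It fell from wild type to malignant cells (-3.11 ± 0.95, edgeR, adjusted p = 0.0392), by 2.29 on the log2 scale without malignant replicate 1 (adjusted p = 0.0423) and by 4.90 without malignant replicate 2 (adjusted p = 0.00431). Rrm2b, the p53-induced subunit of ribonucleotide reductase, was at 263 and 238 CPM in wild type, 114 and 124 CPM in premalignant and 80.7 and 63.8 CPM in malignant cells, and fell from premalignant to malignant cells (-0.72 ± 0.16, edgeR, adjusted p = 0.0785).

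**Figure D5:**
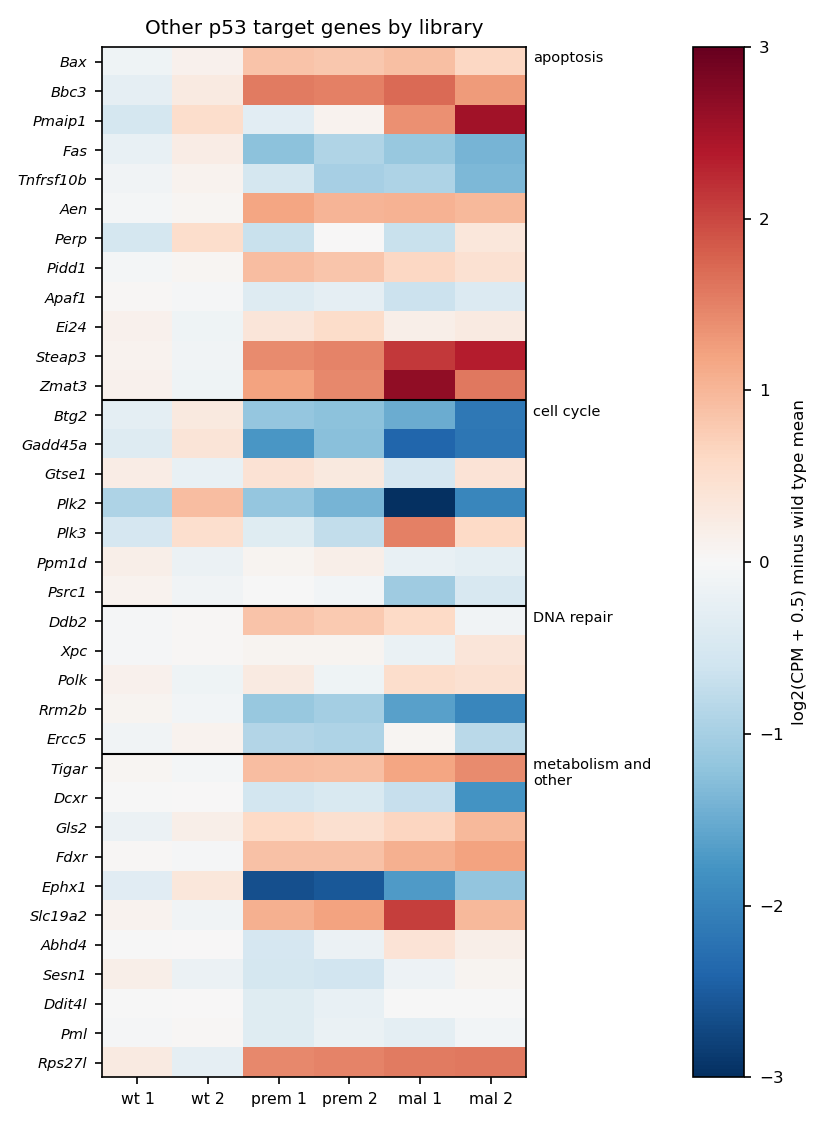
Level of the 35 tested other p53 targets in each library (columns; wt, prem and mal with the replicate number), as log2(CPM + 0.5) minus the mean of the wild type libraries (color scale, capped at 3 and -3), in blocks by role. Bbc3 and Steap3 are red in all 4 Eμ-Myc libraries, Gadd45a and Rrm2b are blue in all 4, and Pmaip1 is darkest in malignant replicate 2.

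The genes closest to Cdkn2a over the 6 libraries were found by the root mean square distance between centered log2(CPM + 0.5) profiles. They were sought among 9565 genes with at least 10 CPM in 1 stage. Cdkn2a was under 0.5 CPM in wild type and malignant replicate 1, so the added 0.5 CPM flattens its profile. The closest were H2-DMb2 and H2-Eb1, genes of MHC class II, Ciita, the transactivator of that class, the heat shock gene Hsph1 and the fatty acid-binding gene Fabp5. Their distances, between 0.761 and 0.818, were large, so the likeness was loose. Ciita, for example, was at 29.9 and 28.4 CPM in wild type, 82.2 and 89.8 CPM in premalignant, 36.9 CPM in malignant replicate 1 and 148 CPM in malignant replicate 2. Fabp5 departed from the pattern. It was at 29.8 CPM in malignant replicate 1, well above wild type (6.45 and 6.54 CPM). In malignant replicate 2 it was at 54.1 CPM, below the premalignant libraries (69.6 and 63.6 CPM). For Cdkn1a the closest genes were the transcription factor genes Runx1, Tcf4 and Mef2a with Socs5 and Endod1, at smaller distances, between 0.109 and 0.163. Runx1 was at 125 and 120 CPM in wild type, 52.1 and 49.9 CPM in premalignant, 26.4 CPM in malignant replicate 1 and 56.8 CPM in malignant replicate 2. These likenesses rest on 6 libraries and were not tested.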

How the data were processed

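RNA-seq of pre-B cells from wild type, premalignant and malignant mice was analysed, with 2 libraries for each of 3 stages grouped by their labels. The raw counts per gene deposited by the authors come from 50-bp single-end reads, aligned with TopHat and counted with HTSeq, and were not normalized. The submitters' processing notes name CASAVA 1.8.2, Bowtie, HTSeq, DESeq and mm9. HTSeq options and the annotation used are not given in the sources used here. The deposited tables of the authors' own DEseq comparisons (means, fold changes and p-values) were not used. The library kit does not mark strand.

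Counts were fitted with edgeR 4.0.16 (R 4.3.3), with TMM normalization, its default filter on low counts, all 6 libraries in 1 fit and Benjamini-Hochberg adjustment over 16683 genes. Standard errors come from the fold change and its F statistic. TMM normalization would not show a change in total RNA per cell. Symbols, exons and coordinates come from GENCODE vM1 on NCBIM37, with a symbol for 37205 of 37991 identifiers. RPKM was computed from TMM-scaled CPM and exon length. The scripts were tested on simulated data. Alternatives were DESeq2 1.42.0, other normalizations, filters, pseudocounts and thresholds, a replicate block, fits of only the stages compared and leaving out each library.

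The members and gene lists were chosen with earlier results of these data known. Named were all members, the up to 3 largest called changes in each direction per list and comparison, the 3 largest differences between the malignant libraries in each direction, the 3 nearest protein-coding genes on each side of Cdkn2a and Trp53 and the 5 profiles closest to Cdkn2a and Cdkn1a. Of those, the genes that matter most are given with values.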

Additional observations from a re-analysis of the deposited data

How the results depend on the processing

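For malignant vs. premalignant cells, the count of 1 called among the 9 members became 2 with no filter on low counts, with at least 10 counts in every library and with DESeq2, and 0 with only the stages compared, at an FDR of 0.05 and when a log2 fold change of 1 or more was asked for. Among the other p53 targets the count of 3 became 9 with no filter, 8 with DESeq2, 0 with only the stages compared and at an FDR of 0.05, and 1 at a log2 fold change of at least 1. Among the regulators the count of 0 became 2 with no filter. Over all genes, malignant vs. premalignant gave 623 higher and 408 lower of 16683 in the main fit. It gave 1438 and 1372 of 26485 with no filter, and 608 and 422 of 12877 with at least 10 counts in every library. DESeq2 gave 1149 and 1037 of 15447. At a log2 fold change of at least 1, premalignant vs. wild type gave 1 member, 11 other targets and 7 regulators, and malignant vs. wild type gave 6 regulators. The share of all genes called was not recorded for either stricter threshold or for only the stages compared. For leaving out each library, it was recorded only for malignant cells without a malignant library. Leaving out each library gave 1 to 6 members, 8 to 22 other targets and 8 to 17 regulators for premalignant vs. wild type, 3 to 6, 16 to 25 and 13 to 17 for malignant vs. wild type, and 0 to 6, 0 to 12 and 0 to 3 for malignant vs. premalignant. With at most 3 mismatches, 7 of 10 members held a p53 site, as did 25.3% of all protein-coding genes. With at most 1 mismatch it was 2 members and 0.965% of all. Within 1000 bases it was 3 members and 1.74% of all.

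With upper-quartile normalization, the median over all genes for malignant vs. wild type went from -0.02 to -0.19, and split the calls for malignant vs. premalignant into 487 higher and 492 lower in place of 623 and 408. The log2 fold changes that changed sign were those of genes not called in the comparison. Ccng1 in malignant vs. wild type became -0.16 with upper-quartile normalization, -0.0084 with median-of-ratios size factors, -0.084 with at least 10 counts and -0.0064 with DESeq2, and ranged from -0.19 (without wild type replicate 2) to 0.24 when single libraries were left out, with -0.052 without malignant replicate 1. Mdm4 in premalignant vs. wild type ranged from -0.28 to 0.20 (without wild type replicate 2), with 0.000519 without malignant replicate 2. In malignant vs. wild type it ranged from -0.35 (without malignant replicate 1) to 0.76, and in malignant vs. premalignant from -0.30 (without malignant replicate 1) to 0.76. Phlda3 in premalignant vs. wild type ranged from -0.090 (without premalignant replicate 1) to 0.48. In malignant vs. premalignant, Cdkn2a ranged from -4.07 (without malignant replicate 2) to 0.86 (without malignant replicate 1), with 0.13 without premalignant replicate 2, and Cdkn1a from -1.30 to 0.13 (without malignant replicate 1). The cause of these changes was not tested beyond the libraries left out.

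The replicate numbers are shared by the stages, but the labels do not say that they pair the samples, and the main fit did not use them. Deviations from the stage means correlated at 0.412 for premalignant vs. wild type. The correlation was 0.0569 for malignant vs. wild type and 0.128 for malignant vs. premalignant. The first was the largest, and its source was not tested. With the number as a replicate block, Sesn2 in premalignant vs. wild type was no longer called (-0.85, edgeR, adjusted p = 0.122).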
